A study of Arabidopsis thaliana with 6 samples.

Results

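The 6 sigma factor genes SIG1 to SIG6 and the 3 genes of phage-type organelle RNA polymerases, RPOTp, RPOTmp and RPOTm, were followed in whole seedlings of Arabidopsis thaliana. They were taken by locus code and make up 9 of the 33341 genes in the count tables, and all 9 passed the filter on low counts that left 18115 genes for testing. RNA sequencing reads were compared between 3 libraries labelled pp7l-1, a mutant of PROTEIN PHOSPHATASE 7-LIKE (PP7L), and 3 libraries of the wild type (Col in the titles). All seedlings were 4 days old and had grown on agar with 1% sucrose at 22 °C in long days under white light of 100 µmol photons per square metre and second. The series asks how PP7L takes part in chloroplast development. No further allele or agent is named for either genotype, and the labels do not state the lesion of pp7l-1 or whether each replicate was grown on its own; p-values cover no more than the spread between these libraries, which may be technical.

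Chloroplasts read their genome with a pair of unlike RNA polymerases. The plastid-encoded polymerase is of the bacterial type: its core comes from the plastid rpo genes, and it finds promoters only through sigma factors, which are made in the nucleus and imported. The nucleus-encoded polymerase is a single-subunit enzyme of the phage type, of which RPOTp works in plastids, RPOTm in mitochondria and RPOTmp in both organelles; in plastids it reads mainly housekeeping genes, the rpo genes among them, and is most important early in development.

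The libraries labelled pp7l-1 held 11269557 to 13724880 counts and those of the wild type 14342054 to 16744328, of which the 9 genes together took 661, 745 and 1075 counts in pp7l-1 and 511, 459 and 398 in the wild type. PP7L itself had 280, 247 and 315 counts in the libraries labelled pp7l-1 and 24, 22 and 21 in the wild type, which does not show a loss of its transcript, so each direction below rests on the labels. The plastid gene psbA took 20.5% to 28.6% of all counts in pp7l-1 and 45.7% to 51.8% in the wild type, and annotated nuclear ribosomal RNA genes took 7.56% in pp7l-1 replicate 1 and at most 0.0151% in the other 5 libraries. Levels are therefore given as CPM, the count in a library divided by its size in units of 1e+06 reads after TMM scaling (trimmed mean of M values), which sets each gene against the bulk of genes. Root markers were mostly lower in pp7l-1, where 7 of 8 tested fell and 1 rose at the threshold given below. Over all tested genes 11.3% were lower and 10.6% higher. The 10 root markers on the list summed to 22.3 to 37.4 CPM in pp7l-1, against 95.9 to 104 CPM in the wild type. With 1 library left out, 5 to 6 root markers fell and 1 rose. Of 8 green tissue markers 2 rose and 0 fell, and their sums were 13767 to 17893 CPM in pp7l-1 and 11525 to 15508 CPM in the wild type. With 1 library left out, 0 to 4 of them rose. LHCB2.1 was lower in every pp7l-1 library than in any of the wild type (means 1256 and 1801 CPM), though not past the threshold given below. By the same measure 3 markers were higher in pp7l-1, namely GLDP1, PSAD1 and HCEF1, of which HCEF1 did not pass. Over all tested genes 18.7% were higher and 19.5% lower by that measure. No marker of either list was at 0 in all libraries. The part of these tissue markers in the changes below was not tested, and in whole seedlings fewer cells of a type and less RNA per cell cannot be told apart.

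The genes lie apart from each other on 4 of the nuclear chromosomes. On the assembly TAIR10.1, SIG1 (AT1G64860) is at chromosome 1, 24097736 to 24100970, and SIG2 (AT1G08540) at chromosome 1, 2703295 to 2706860, both on the plus strand. The others are on the minus strand: SIG3 (AT3G53920) at chromosome 3, 19960789 to 19963980, SIG4 (AT5G13730) at chromosome 5, 4429095 to 4430901, SIG5 (AT5G24120) at chromosome 5, 8157151 to 8160343, SIG6 (AT2G36990) at chromosome 2, 15537225 to 15540139, RPOTp (AT2G24120) at chromosome 2, 10248851 to 10254641, RPOTmp (AT5G15700) at chromosome 5, 5114761 to 5121841, and RPOTm (AT1G68990) at chromosome 1, 25934997 to 25940996. The sigma factor genes carry between 1454 (SIG4) and 2635 (SIG5) exon bases and the polymerase genes between 3695 (RPOTm) and 4300 (RPOTmp). SIG4 shares 13.8% of its exon bases with a gene on the other strand, AT5G13720, and the other 8 share at most 0.92%. Of all exon stretches of 50 bases in the 9 genes, only 3, in RPOTmp, recur elsewhere in the genome, so reads of these relatives were rarely interchangeable.

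The 250 bases before the annotated start were read from RefSeq (TAIR10.1) for all 9 genes and searched on either strand for the G-box CACGTG, the evening element AAAATATCT, the CCA1-binding site AAAAATCT, the telo-box AAACCCTA and the I-box GATAAG, of which none contains another. Windows are shown for SIG3 and SIG4, whose levels relative to each gene's own mean were the most similar of any 2 genes over the 6 libraries. Those of SIG5, whose groups overlapped, and of RPOTmp, which shares an element with SIG3, are shown as well. They are written 5′ to 3′ on the strand of the gene, with matches in capitals.
SIG3, chr3:19963981-19964230, minus strand: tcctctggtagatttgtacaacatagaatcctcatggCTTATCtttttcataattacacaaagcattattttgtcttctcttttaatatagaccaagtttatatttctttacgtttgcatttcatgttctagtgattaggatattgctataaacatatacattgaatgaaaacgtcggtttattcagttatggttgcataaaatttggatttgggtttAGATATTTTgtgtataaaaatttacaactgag
SIG4, chr5:4430902-4431151, minus strand: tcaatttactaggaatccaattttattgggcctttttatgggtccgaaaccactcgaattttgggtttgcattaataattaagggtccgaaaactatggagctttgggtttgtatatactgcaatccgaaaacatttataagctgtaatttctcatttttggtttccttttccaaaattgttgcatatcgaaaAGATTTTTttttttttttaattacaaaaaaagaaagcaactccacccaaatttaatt
SIG5, chr5:8160344-8160593, minus strand: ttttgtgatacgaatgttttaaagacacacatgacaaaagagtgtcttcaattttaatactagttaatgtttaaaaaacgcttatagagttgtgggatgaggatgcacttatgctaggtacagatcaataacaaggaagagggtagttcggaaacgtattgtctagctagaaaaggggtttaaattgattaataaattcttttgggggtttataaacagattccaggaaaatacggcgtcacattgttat
RPOTmp, chr5:5121842-5122091, minus strand: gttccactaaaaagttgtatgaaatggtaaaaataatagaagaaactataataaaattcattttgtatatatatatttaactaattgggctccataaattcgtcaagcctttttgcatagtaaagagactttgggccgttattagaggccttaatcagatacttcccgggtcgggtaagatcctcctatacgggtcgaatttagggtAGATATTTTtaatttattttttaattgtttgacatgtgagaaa
The evening element, a site for clock proteins, stood in reverse orientation in SIG3 and in RPOTmp, beginning 32 and 43 bases before the start, and is found in 2.36% of 27438 promoter windows of protein-coding genes. SIG3 also held an I-box (12.3% of windows), SIG4 a CCA1-binding site (6.69%) and RPOTm an I-box, and SIG1, SIG2, SIG5, SIG6 and RPOTp held none of the 5 motifs. The G-box (6.49% of windows) and the telo-box (4.49%) were in none of the 9. The SIG3 window also overlaps AT3G00910, a non-coding RNA gene of the same strand. Other annotated genes overlap the windows of SIG1 (AT1G64850), SIG2 (AT1G08530), SIG6 (AT2G37000) and RPOTm (AT1G69000). A match or its absence describes only these letters in this window.

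Transcripts of 4 of the 9 genes rose in the libraries labelled pp7l-1, namely SIG2, SIG3, SIG4 and RPOTp, by factors of 1.83 to 2.22. None fell, SIG1, SIG6 and RPOTmp were higher in every pp7l-1 library than in any wild-type library but missed the threshold, and SIG5 and RPOTm had overlapping groups. Over all 18115 tested genes, edgeR's quasi-likelihood test called 10.6% higher and 11.3% lower at an adjusted p of 0.05. Across the 9 genes the median log2 fold change was 0.79, beside -0.0075 over all tested genes, and in 7 of them the groups did not overlap with pp7l-1 above, which held for 18.7% of all tested genes. The 9 genes were chosen with earlier results of these data known, so this contrast is a description.

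**Figure D1:**
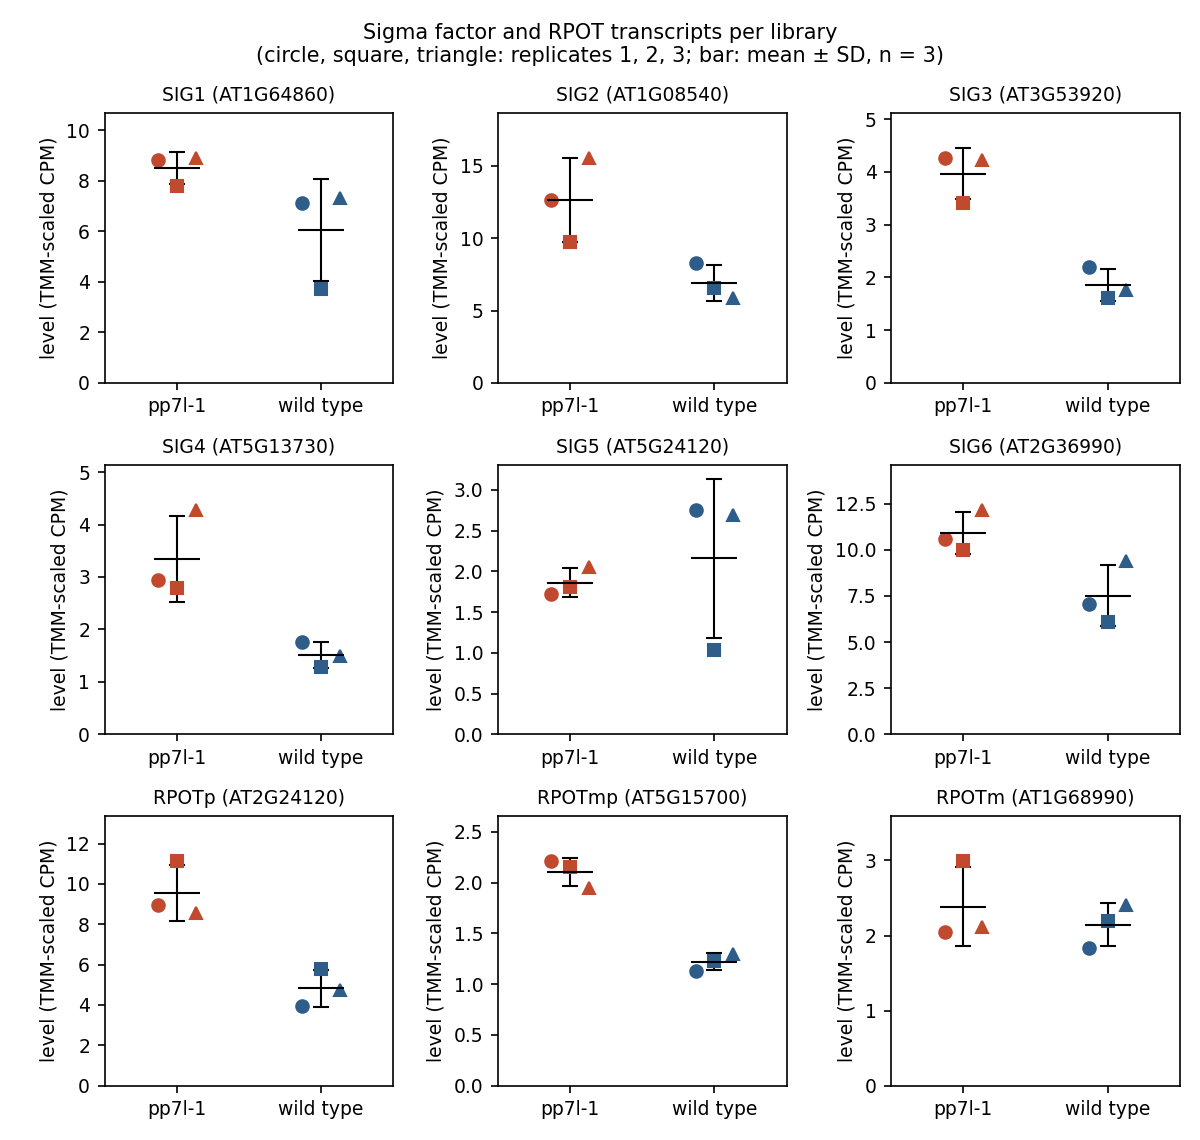
Level of each of the 9 genes in TMM-scaled CPM (vertical axes, each from 0) in the 3 libraries labelled pp7l-1 (red, left) and the 3 of the wild type (blue, right), with mean and SD. In SIG5 and RPOTm the points of the genotypes overlap, and in the other 7 every pp7l-1 point is above every wild-type point.

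SIG2 and SIG6 are the sigma factors that young seedlings lean on most: loss of either gives pale cotyledons, and SIG2 is known for the transcription of plastid tRNA genes, that for glutamate included, from which chlorophyll synthesis starts. SIG2 had 12.6, 9.74 and 15.5 CPM in pp7l-1, against 8.28, 6.56 and 5.85 CPM in the wild type. The lowest pp7l-1 library, replicate 2, was still above the highest of the wild type, replicate 1. The means were 12.6 ± 2.89 CPM and 6.90 ± 1.25 CPM (SD, n = 3 each), a log2 fold change of 0.87 ± 0.21 (SE; edgeR adjusted p = 0.00835). SIG2 passed with any single library left out, with log2 fold changes of 0.71 to 1.05. SIG6, which acts broadly on photosynthesis genes in the first days after germination, had 10.6, 10.02 and 12.2 CPM in pp7l-1, against 7.07, 6.11 and 9.37 CPM in the wild type. The groups lay close together, with wild-type replicate 3 just under the lowest pp7l-1 library. Its log2 fold change was 0.55 ± 0.20 (edgeR adjusted p = 0.0566) with a 95% interval of 0.13 to 0.97. With 1 library left out it ranged from 0.42 without wild-type replicate 2 (adjusted p = 0.208) to 0.75 without wild-type replicate 3 (adjusted p = 0.0287), and it passed in 2 of the 6 fits, the other being that without pp7l-1 replicate 2 (0.64, adjusted p = 0.0418).

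SIG3 and SIG4 are the specialists of the family, each tied in Arabidopsis to few plastid promoters, SIG3 to psbN and SIG4 to ndhF, a subunit gene of the NDH complex. They had the largest log2 fold changes of the 9. SIG3 was at 4.26, 3.41 and 4.23 CPM in pp7l-1, against 2.19, 1.61 and 1.76 CPM in the wild type. These groups stood well apart. The log2 fold change was 1.09 ± 0.26 (edgeR adjusted p = 0.00688), and it stayed between 0.99 and 1.23, past the threshold, with any library left out. SIG4 was at 2.95, 2.78 and 4.28 CPM in pp7l-1, against 1.77, 1.29 and 1.48 CPM in the wild type, from 36, 40 and 77 counts and 25, 20 and 16 counts. Replicate 3 was the highest pp7l-1 library, and the groups did not overlap. SIG4 had a log2 fold change of 1.15 ± 0.29 (edgeR adjusted p = 0.0101). Without pp7l-1 replicate 3 it was 0.94 and did not pass (adjusted p = 0.0522).

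SIG1, a sigma factor of photosystem genes whose activity is known to respond to redox state, had 8.85, 7.79 and 8.90 CPM in pp7l-1, against 7.14, 3.73 and 7.33 CPM in the wild type. Wild-type replicate 2 was far under its fellows, which came close to the lowest pp7l-1 library without reaching it. The log2 fold change was 0.50 ± 0.23 (edgeR adjusted p = 0.138), with a 95% interval of 0.01 to 1.00. It was 0.23 (adjusted p = 0.473) without wild-type replicate 2.

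SIG5 differs from the rest of the family in being induced by blue light and by stress, and it drives the blue-light-responsive promoter of psbD, the gene of the D2 protein of photosystem II. It had 1.72, 1.81 and 2.06 CPM in pp7l-1, against 2.76, 1.03 and 2.69 CPM in the wild type, from 21, 26 and 37 counts and 39, 16 and 29 counts. The pp7l-1 libraries were close to each other and lay inside the wide range of the wild type, whose replicate 2 was low as it was for SIG1. SIG5 was the only one of the 6 sigma factors with a log2 fold change below 0, at -0.18 ± 0.35 (edgeR adjusted p = 0.758). The 95% interval, -0.92 to 0.56, spans ratios of pp7l-1 to wild type between 0.527 and 1.48. Without wild-type replicate 2 the value was -0.54 (adjusted p = 0.239), and without wild-type replicate 1 it was 0.06 (adjusted p = 0.939).

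Of the phage-type polymerases RPOTp, the main nucleus-encoded polymerase of green tissue, known from the scabra3 mutant, was the one that rose. It had 8.93, 11.1 and 8.57 CPM in pp7l-1, against 3.96, 5.79 and 4.73 CPM in the wild type. The groups stood well apart, and the lowest pp7l-1 library was replicate 3. The log2 fold change was 0.98 ± 0.21 (edgeR adjusted p = 0.00333), the smallest p of the 9, and 0.84 to 1.14 with any library left out, past the threshold each time. RPOTmp serves both organelles and is known to transcribe plastid ribosomal RNA early in development. It had 2.21, 2.16 and 1.95 CPM in pp7l-1, against 1.13, 1.22 and 1.299 CPM in the wild type. Both groups were narrow and did not overlap. Its counts were 27, 31 and 35, against 16, 19 and 14, and the log2 fold change of 0.79 ± 0.30 did not pass (edgeR adjusted p = 0.0728, 95% interval 0.15 to 1.42). RPOTm, the mitochondrial enzyme, needed for the male gametophyte, had 2.05, 2.99 and 2.11 CPM in pp7l-1, against 1.84, 2.19 and 2.41 CPM in the wild type. These groups overlapped, with pp7l-1 replicate 2 alone above all wild-type libraries. The log2 fold change was 0.16 ± 0.28 (edgeR adjusted p = 0.733, 95% interval -0.44 to 0.75).

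**Figure D2:**
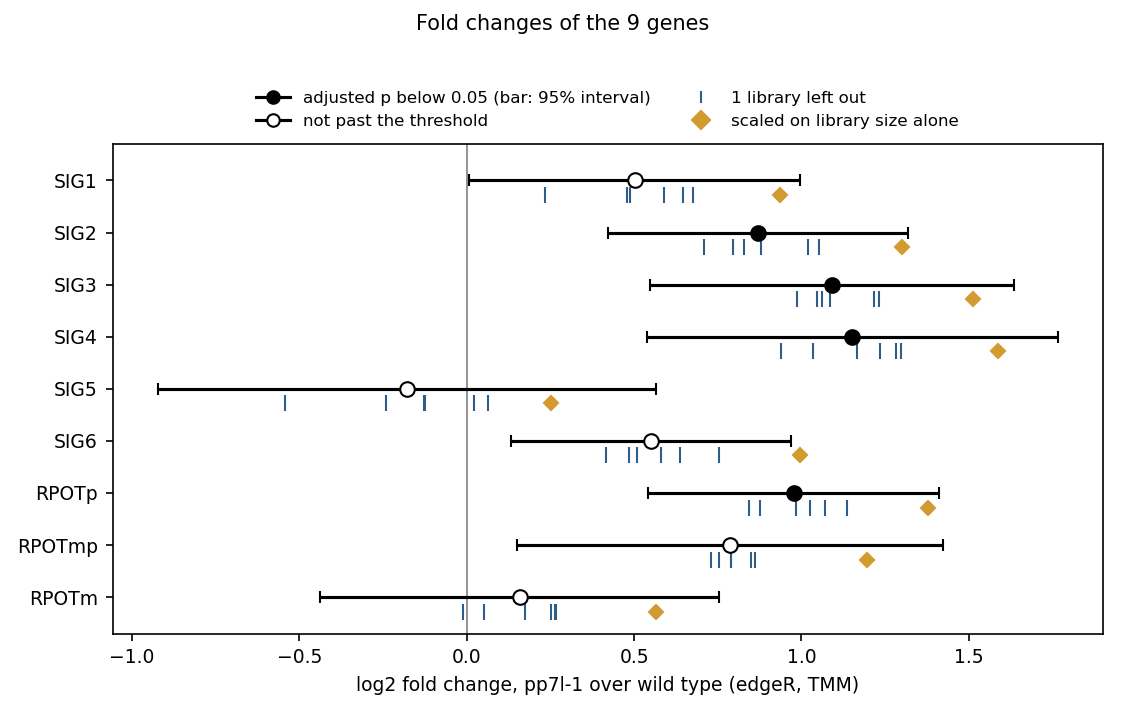
Log2 fold changes of the 9 genes, pp7l-1 over wild type (horizontal axis), with 95% intervals (black), values with 1 library left out (blue ticks) and the value scaled on library size alone (yellow diamonds). SIG2, SIG3, SIG4 and RPOTp (filled) pass the threshold, and every diamond lies to the right of its gene's black point.

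The fold changes depend on what the genes are set against. Scaled on library size alone, all genes together had a median of 0.41 on the log2 scale, 4493 genes were higher and 759 lower, against 1929 and 2043 with TMM, and 7 of the 9 genes were called higher, all but SIG5 and RPOTm. On that scale SIG5 had 0.25, so that its sign turned. With TMM computed on nuclear genes alone, 5 of the 9 were called, SIG6 (adjusted p = 0.0499) beside the 4 above.

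Whether the genes changed by different amounts was asked of all 36 pairs, through the ratio of their levels in each library. With 3 libraries against 3 the exact two-sided permutation test cannot give a p below 0.1 (0.45 adjusted over the pairs), so no pair could have passed and the ratios are given as a description. In 8 of the 36 pairs the ratios of the genotypes did not overlap. The pairs share genes, and pairs of other genes were not counted, so 8 cannot be called many or few. SIG5 was in 3 of these 8 pairs: the ratio of SIG3 to SIG5 was 2.94, 2.23 and 2.44 in pp7l-1 and 0.943, 1.85 and 0.777 in the wild type. The ratios of SIG4 and SIG1 to SIG5 were likewise higher in each pp7l-1 library. RPOTm was in 2: the ratio of RPOTp to RPOTm was 4.28, 3.66 and 3.98 in pp7l-1, against 2.12, 2.60 and 1.93 in the wild type, and that of RPOTmp to RPOTm was also higher in each pp7l-1 library. In the remaining 3, SIG3 was higher relative to SIG1 and to SIG6, and SIG4 relative to SIG6.

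Levels of different genes are compared per kilobase of exon. In the libraries labelled pp7l-1 the order was SIG2 (6.16 ± 1.41 CPM per kb), SIG6 (5.34 ± 0.550), SIG1 (3.59 ± 0.263), RPOTp (2.54 ± 0.369), SIG4 (2.30 ± 0.566), SIG3 (1.78 ± 0.217), SIG5 (0.707 ± 0.0665), RPOTm (0.645 ± 0.143) and RPOTmp (0.490 ± 0.0325). In the wild type SIG6 led with 3.68 ± 0.819 CPM per kb, followed by SIG2 (3.37 ± 0.610), SIG1 (2.56 ± 0.854), RPOTp (1.28 ± 0.244), SIG4 (1.04 ± 0.166), SIG3 (0.835 ± 0.136), SIG5 (0.820 ± 0.372), RPOTm (0.581 ± 0.0782) and RPOTmp (0.283 ± 0.0195). Apart from the exchange of SIG2 and SIG6 at the top, the order of the means was the same. That exchange rested on wild-type replicate 3. The ratio of SIG2 to SIG6 was 1.19, 0.970 and 1.27 in pp7l-1, against 1.17, 1.07 and 0.622 in the wild type. Neighbours whose ranges over the libraries overlapped were SIG2 and SIG6, RPOTp and SIG4, SIG4 and SIG3, and SIG5 and RPOTm in both genotypes. Within single libraries SIG4 was above SIG3 in all 6, with ratios of 1.06, 1.25 and 1.55 in pp7l-1 and 1.23, 1.22 and 1.29 in the wild type, whereas the order of the other 3 pairs differed between libraries. SIG2 and SIG1, and SIG3 and SIG5, overlapped in the wild type alone, whereas in pp7l-1 SIG6 stood above SIG1 and SIG3 above SIG5 without overlap.

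The 9 genes spread widely over the range of nuclear gene levels. Among 17020 tested protein-coding genes of the nucleus, SIG2 was above 79.1% in pp7l-1 and above 62.2% in the wild type by mean level per kb. RPOTp was above 53.8% in pp7l-1 and 30.3% in the wild type. SIG5 was above 13.9% in pp7l-1 and 17.7% in the wild type, and RPOTmp above 7.16% in pp7l-1 and 2.16% in the wild type.

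As a share of the summed level per kb of the 6 sigma factors, SIG2 held 31.3%, 27.8% and 33.1% in pp7l-1, against 29.4%, 32.8% and 21.3% in the wild type. SIG6 held 26.3%, 28.7% and 26.0% in pp7l-1, against 25.1%, 30.6% and 34.3% in the wild type. In both genotypes this pair made up more of the pool than the remaining 4 did. SIG5 held 3.32%, 4.02% and 3.41% in pp7l-1, against 7.61%, 4.00% and 7.64% in the wild type, and here wild-type replicate 2 fell among the pp7l-1 libraries. SIG3 held 8.30% to 9.75% in pp7l-1 and 5.94% to 7.41% in the wild type, and SIG4 held 10.3% to 12.9% in pp7l-1 and 7.64% to 9.06% in the wild type, so that neither overlapped. Among the phage-type polymerases RPOTp held 69.0%, 69.3% and 69.0% in pp7l-1, against 58.1%, 63.7% and 56.9% in the wild type. RPOTmp had overlapping shares, 11.7% to 14.9% in pp7l-1 and 11.8% to 14.5% in the wild type, and RPOTm had 16.1% to 19.0% in pp7l-1, against 24.5% to 29.5% in the wild type. These shares are descriptions without a test.

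**Figure D3:**
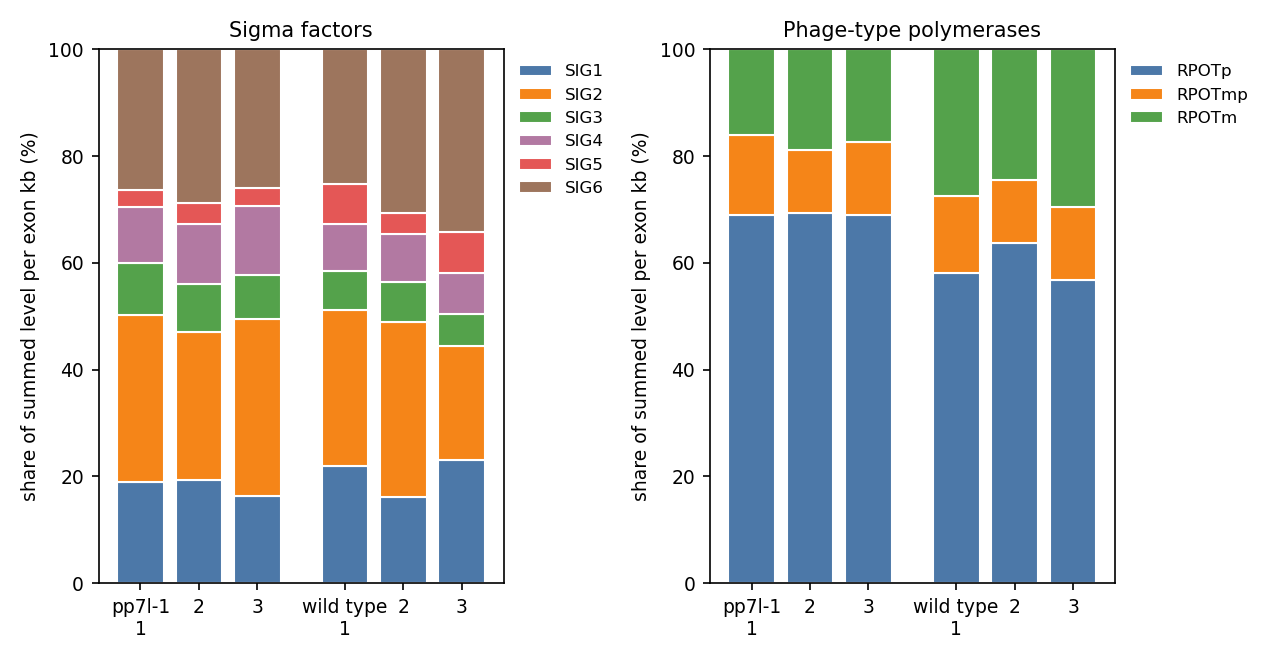
Share of each gene (vertical axis, in percent) in the summed level per exon kb of the 6 sigma factors (left) and the 3 phage-type polymerases (right), for each library labelled pp7l-1 and each of the wild type. RPOTp takes 69.0% to 69.3% in pp7l-1 and 56.9% to 63.7% in the wild type, and SIG2 with SIG6 fills more of the sigma pool than the other 4 together in each library.

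By centred log2 CPM over the 6 libraries, the smallest root mean square difference between any 2 of the 9 was that of SIG3 and SIG4 (0.155), followed by SIG2 with SIG3 and SIG2 with SIG4 (0.172 each) and RPOTp with RPOTmp (0.208). The largest was that of SIG5 and RPOTp (0.795). Among 7385 genes with a symbol and at least 1 CPM, the nearest to SIG2 were ABCF4 (0.06) and ATSPS4F (0.06), to SIG3 AIL5 (0.05) and emb1473 (0.06), to SIG4 TCX2 (0.10) and PCB2 (0.10), and to RPOTp EMB3012 (0.09) and MAP1C (0.10). With 2 genotypes, such likeness rests largely on the difference between them.

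The core subunits of the enzyme that the sigma factors serve are themselves plastid-encoded. Of the 4, rpoB, rpoC1 and rpoC2, which form 1 operon, rose, with log2 fold changes of 1.83 ± 0.24, 1.88 ± 0.25 and 1.78 ± 0.26 (edgeR adjusted p = 7.98e-05, 9.05e-05 and 0.000230), and rpoA, from another operon, had 0.83 ± 0.29 (adjusted p = 0.0554). rpoA passed without pp7l-1 replicate 1 (1.03, adjusted p = 0.0363), pp7l-1 replicate 2 (0.89, 0.0459) or wild-type replicate 3 (1.10, 0.0408), and with DESeq2 (0.84, 0.00925). Of the 12 nuclear polymerase-associated proteins, which dress the core in chloroplasts, 11 rose and 0 fell, led by PAP5 (HMR, 1.87 ± 0.31), PAP9 (FSD2, 1.85 ± 0.30), PAP2 (pTAC2, 1.51 ± 0.22) and PAP6 (FLN1, 1.49 ± 0.24). PAP8 was at 12.1 ± 0.730 CPM in pp7l-1 and 12.3 ± 0.358 CPM in the wild type. The median log2 fold change was 1.80 for the core and 1.31 for the associated proteins, both above the 0.79 of the sigma factors and phage-type polymerases. Over all tested genes 10.6% were called higher and 11.3% lower.

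Proteins known to act on sigma factors or phage-type polymerases were also looked at. Of 9 on the list 8 could be tested, 2 rose and 0 fell, beside 10.6% higher and 11.3% lower over all tested genes. The median of those tested was 0.42 on the log2 scale. GUN1, which signals plastid state to the nucleus and is known to bind RPOTp, rose by 1.86 ± 0.21 on the log2 scale (edgeR adjusted p = 2.74e-05). PRDA1, a plastid protein needed for expression from the plastid-encoded polymerase, had 1.15 ± 0.36 (edgeR adjusted p = 0.0319) from 9 to 35 counts a library, and only leaving out pp7l-1 replicate 2 kept that call: the adjusted p was 0.0915 and 0.0954 when pp7l-1 replicates 1 and 3 were left out in turn, 0.0584, 0.121 and 0.0647 for wild-type replicates 1, 2 and 3, and 0.0977 with DESeq2. Among those that did not pass were CSK, the sensor kinase that acts on SIG1, at 9.45 ± 1.76 CPM in pp7l-1 and 10.02 ± 0.819 CPM in the wild type, and the membrane anchor NIP2 of RPOTmp with -0.18 ± 0.32. SIB1 was too low to test. The mTERF proteins are known as transcription and splicing factors of plastids and mitochondria. Of 6 organelle proteins of this family 2 rose, beside 10.6% of all tested genes, and the median of the 6 was 0.74. BSM, needed in the plastid, rose by 1.91 ± 0.25 (edgeR adjusted p = 8.26e-05) and MTERF6 by 0.81 ± 0.18 (adjusted p = 0.00462).

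Of 7 plastid genes tied in Arabidopsis to a sigma factor, 2 rose, 1 fell and 4 did not pass. Over all tested genes 10.6% were called higher and 11.3% lower. Each was listed under 1 sigma factor, which need not be the only one to act on it. Scaled on library size alone, 4 of the 7 were higher and 0 lower. The log2 fold changes of the sigma factors were 0.87 for SIG2, 1.09 for SIG3, 1.15 for SIG4, -0.18 for SIG5 and 0.55 for SIG6. SIG5 and SIG6 did not pass. These values are set beside the plastid genes without a claim of dependence, which was not tested. psaJ, a photosystem I subunit gene tied to SIG2, had 4249 ± 1723 CPM in pp7l-1 and 10508 ± 4841 CPM in the wild type. Its log2 fold change was -1.31 ± 0.41 (edgeR adjusted p = 0.0322). psbD, tied to SIG5, had 4001 ± 853 CPM in pp7l-1 and 1894 ± 451 CPM in the wild type, a log2 fold change of 1.08 ± 0.32 (edgeR adjusted p = 0.0239). atpB, for a subunit of ATP synthase and tied to SIG6, had 1.17 ± 0.35 (edgeR adjusted p = 0.0255). ndhF, tied to SIG4, had -0.13 ± 0.27 and psbN, tied to SIG3, had 0.97 ± 0.35, and neither passed (edgeR adjusted p = 0.781 and 0.0602). psbA, which codes for the D1 reaction centre protein, is tied to SIG6, and psbC, for a core antenna protein, to SIG5. They had -1.45 ± 0.60 and 0.94 ± 0.35 with groups that did not overlap, and neither passed (edgeR adjusted p = 0.0948 and 0.0659). Both passed with DESeq2 (adjusted p = 2.88e-08 and 0.000169), but neither passed in edgeR with any 1 library left out.

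These plastid calls rested on few libraries. The call of psaJ was lost without pp7l-1 replicate 1 (adjusted p = 0.0957) or 3 (0.0789), without wild-type replicate 1 (0.0666) or 3 (0.197, with a log2 fold change of -0.85), with DESeq2 (0.0700) and when scaled on library size alone (0.0838, with -0.87). psbD did not pass without wild-type replicate 1 (0.137) or 2 (0.0612), nor atpB without pp7l-1 replicate 3 (0.103, with 0.72) or wild-type replicate 1 (0.114), 2 (0.0842) or 3 (0.0506). psbN in turn passed without pp7l-1 replicate 1 (0.0343), pp7l-1 replicate 2 (0.0217) or wild-type replicate 3 (0.02496). The count tables do not separate transcripts by start site, so none of these values shows which promoter was used.

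Of 5 plastid genes that the nucleus-encoded polymerase is known to read, rpoB and ycf2 rose and 3 did not pass. The share called higher over all tested genes was 10.6%. accD, for a subunit of the plastid acetyl-CoA carboxylase and a standard marker of that polymerase, had 645 ± 90.3 CPM in pp7l-1 and 606 ± 94.6 CPM in the wild type (log2 fold change 0.09 ± 0.24, edgeR adjusted p = 0.826). clpP, for a protease subunit, had 0.73 ± 0.30 (edgeR adjusted p = 0.0891) with groups that did not overlap (DESeq2 adjusted p = 0.000730), and ycf1 had 0.25 ± 0.30 (adjusted p = 0.584). ycf2, which lies in the inverted repeat and is thus present in more than 1 copy, had only 11, 15 and 13 counts in pp7l-1 and 3, 4 and 6 in the wild type, so its reads are uncertain. Its log2 fold change was 1.42 ± 0.48 (edgeR adjusted p = 0.0458). That call was lost when any library other than wild-type replicate 3 was left out (adjusted p = 0.0616 to 0.183), and with DESeq2 (0.168). RPOTp rose by 0.98 on the same scale, a value under those of rpoB and ycf2 and over those of clpP, ycf1 and accD.

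In mitochondria RPOTmp is tied to nad6 and cox1. cox1, for a subunit of cytochrome c oxidase, had 1784 ± 241 CPM in pp7l-1 and 1026 ± 200 CPM in the wild type, a log2 fold change of 0.80 ± 0.27 (edgeR adjusted p = 0.0466) beside the 0.79 of RPOTmp. It passed with pp7l-1 replicate 3 left out and with none of the other 5 (adjusted p = 0.0537 to 0.192). nad6 had a count of 0 in all 6 libraries, so its change could not be assessed. Whether its reads were left out in mapping or counting was not tested.

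None of the blue light inputs known for SIG5 passed. CRY1, a blue light receptor, had 27.4 ± 4.48 CPM in pp7l-1 and 25.3 ± 2.05 CPM in the wild type. CRY2, its relative, had 28.7 ± 2.62 CPM in pp7l-1 and 24.3 ± 0.442 CPM in the wild type. The groups of CRY2 did not overlap, with pp7l-1 above, as for 18.7% of all tested genes (log2 fold change 0.24 ± 0.18, edgeR adjusted p = 0.349). Scaled on library size alone, CRY2 passed (edgeR adjusted p = 0.0448). HY5, a transcription factor of light responses, had a log2 fold change of 0.50 ± 0.45 (edgeR adjusted p = 0.458) at 20 counts or fewer a library, and the related HYH, with at most 14 counts, was too low to test. Of 3 tested genes 0 passed with edgeR, 0 had an unadjusted p under 0.05, and DESeq2 and limma voom also called 0.

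**Figure D4:**
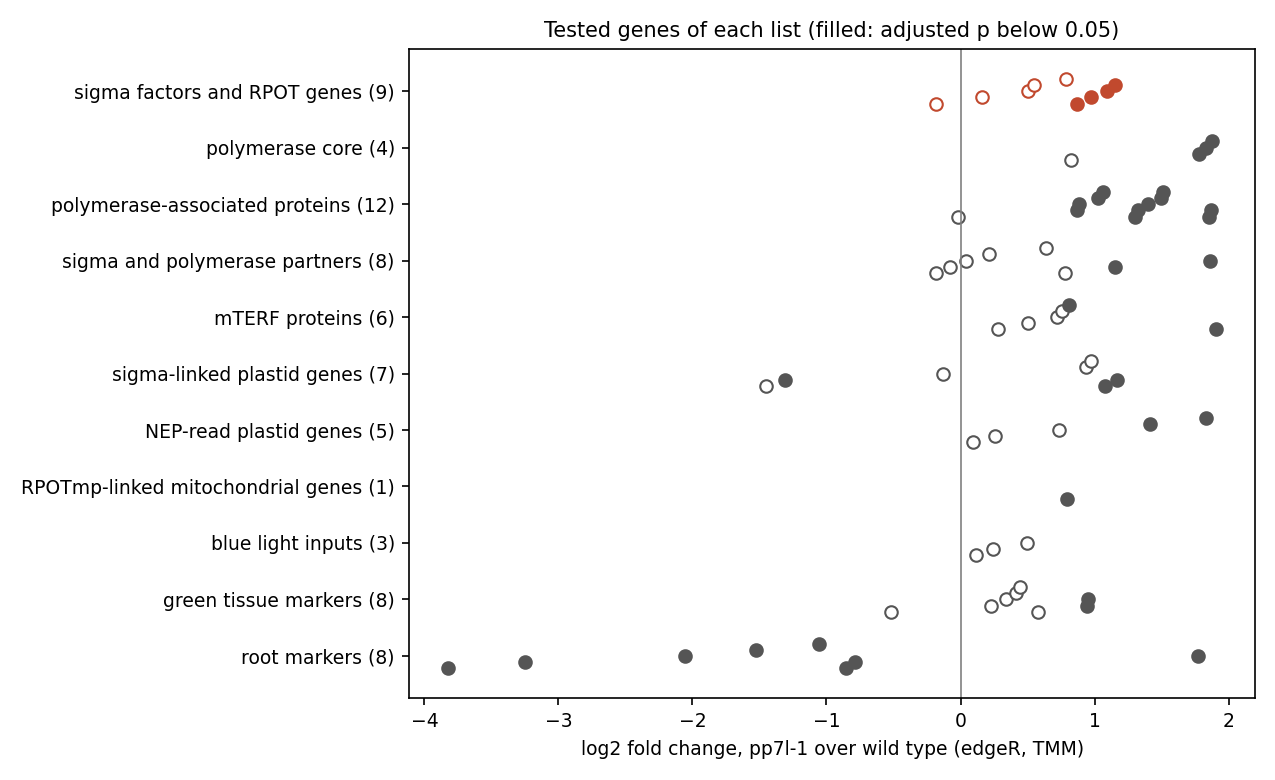
Log2 fold change, pp7l-1 over wild type (horizontal axis), of each tested gene in the family (red) and in the lists around it (grey), with the number tested in brackets and filled points for an adjusted p under 0.05. Of the 12 polymerase-associated proteins 11 are filled and lie to the right of 0, of the 9 sigma factor and RPOT genes 4 are, and the root markers lie mostly to the left.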

How the data were processed

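RNA was sequenced from whole seedlings of 2 genotypes, with 3 libraries each. The authors deposited 1 table of raw read counts per gene for each library. Trimmomatic, FastQC, TopHat2 2.1.1 and featureCounts, and the build TAIR10, are named per the submitters' processing notes; the annotation, the strand setting and the treatment of reads with several matches are not given in the sources used here. Genes, exon lengths, coordinates and promoter windows were read from the RefSeq annotation and genome of TAIR10.1 by locus code; plastid and mitochondrial genes were taken by code.

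The deposited counts were filtered in edgeR 4.0.16 (R 4.3.3) with filterByExpr at a minimum count of 10, scaled by TMM and tested by quasi-likelihood between the genotypes. Benjamini-Hochberg adjustment ran over all 18115 tested genes, the threshold was 0.05, and standard errors and 95% intervals come from the same fit. The common biological coefficient of variation was 0.196. Ratios of 2 genes were compared with exact permutation tests in scipy 1.17.1. The fit was tested on simulated data.

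The members and gene lists were chosen with earlier results of these data known. All 9 members were named, and of the lists every gene where there were at most 5, and otherwise the up to 4 largest changes past the threshold, or failing any the 2 genes of highest level; for each member that passed, the 2 nearest genes were named. CSK, NIP2, SIB1, PAP8, ndhF, psbN, psbA and psbC were named after their values were seen. Alternatives were DESeq2 1.42.0, limma voom (limma 3.58.1), 3 other scalings, nuclear genes alone, 2 other filters (no filter, and 1 CPM in 3 libraries), a robust fit, each library left out and a replicate block.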

Additional observations from a re-analysis of the deposited data

How the results depend on the processing

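Over 16 alternatives for each of the 9 genes, 129 of 144 values kept their direction and their side of the threshold, 10 passed it in addition, 1 no longer passed and 4 changed sign. The 1 lost call was SIG4 without pp7l-1 replicate 3. The sign changes were in genes that never passed: SIG5 had 0.25 scaled on library size alone, 0.063 without wild-type replicate 1 and 0.021 without wild-type replicate 3, and RPOTm had -0.010 without pp7l-1 replicate 2. With 1 library left out SIG5 ranged from -0.54 to 0.063 and RPOTm from -0.010 to 0.27. SIG2, SIG3 and RPOTp passed in all 16 alternatives, SIG6 in 8, and SIG1 and RPOTmp only when scaled on library size alone. The number of the 9 called was 4, 3 to 5 with 1 library left out, and 7 when scaled on library size alone. Over all genes 3972 were called, and 2671 to 4365 with 1 library left out, the lowest without pp7l-1 replicate 1.

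Scaled on library size alone, 4 genes each passed among the sigma and polymerase partners and the mTERF proteins, against 2 each with TMM, and 1 of the blue light inputs, against 0. DESeq2 called 1 of the partners. Of the sigma-linked plastid genes, 3 were called, 5 with limma voom or a robust fit and 6 with no count filter; of the plastid genes read by the nucleus-encoded polymerase, 2 were called and 1 with no count filter or the stricter filter. With 1 library left out these lists gave 1 to 2 (partners), 0 to 4 (sigma-linked), 1 to 2 (nucleus-encoded polymerase) and 0 to 1 (mitochondrial). The cause was not tested.

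The correlations of same-numbered deviations from the group means were 0.1, -0.028 and 0.0535, and not every library correlated best with its own number. With so few libraries these values cannot settle whether equal replicate numbers share a batch. With the number as a replicate block, 5 of the 9 genes and 4153 genes in all were called, 1 of the genes read by the nucleus-encoded polymerase and 0 of the mitochondrial genes. Of the sigma-linked genes 3 were higher and 0 lower with the block, where psaJ did not pass (adjusted p = 0.0641) and psbN did (0.0128). SIG6 (0.0390) and rpoA (0.0473) also passed with the block. Depth limits SIG3, SIG4, SIG5, RPOTmp and RPOTm most, with 14 to 77 counts a library.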
